A study of Rattus norvegicus with 2 samples.

Results

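The genes of the S100 proteins and the annexins were compared between 2 RNA-seq libraries of rat retina. They were taken by symbol, as every listed gene whose symbol began with S100 and a lower-case letter or with Anxa and a digit. The rule found 29 of the 32662 genes in the table, 17 S100 symbols and 12 annexins. Of the 17 S100 symbols, 16 name S100 proteins, whereas *S100pbp* names a protein that binds an S100 protein and does not belong to the family. CTRL was retina of a Long-Evans rat after a sham procedure. IR12 was retina of the same strain taken 12 hours after reperfusion that followed ischemia, an injury in which blood flow to the tissue is stopped and then restored. The animals were female and 2 months old. Each group had 1 library, so the differences have no replicate check and no p-value was computed.

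S100 proteins are small calcium-binding proteins with EF-hand motifs that act mostly as dimers inside cells, and some are also released and bind receptors on other cells. Annexins bind acidic phospholipids of membranes when calcium rises, and they take part in membrane organisation, trafficking and repair. Several S100 proteins bind annexins, and the best known of these complexes joins S100A10 to annexin A2. In the retina S100B is known as a protein of glia, whereas S100A8 and S100A9 are abundant in neutrophils and monocytes.

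Expression was given as FPKM, the fragments counted per length of transcript and per total of mapped fragments, which allows levels of different genes to be set side by side. Change was expressed as the log2 ratio, the log2 of FPKM + 1 in IR12 minus the log2 of FPKM + 1 in CTRL, which understates the change of low genes. It was read for the 13599 genes with an FPKM of at least 1 in at least 1 library, and a gene was called higher or lower at a ratio of at least 2-fold. The tissue label was checked with 7 rod photoreceptor markers. All 7 had an FPKM of at least 1 in both libraries and none was called, with *Gnat1*, the rod transducin gene, at 4027 FPKM in CTRL and 4237 FPKM in IR12. A value of 0 was not read as absence, because *Hprt1*, a gene of nearly all cells, and all 37 mitochondrial genes were listed at 0 in both libraries. There were also 50 genes listed at 0 in CTRL with an FPKM of at least 10 in IR12, and 93 genes listed at 0 in IR12 with an FPKM of at least 10 in CTRL.

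Both families held genes that were higher in IR12 and 1 gene each that was lower. Of the 29 members, 22 passed the filter, 13 of 17 S100 symbols and 9 of 12 annexins. Among them 5 of 13 S100 symbols and 3 of 9 annexins were called higher in IR12, against 6.56% of all genes tested. The lower calls were 1 of 13 S100 symbols and 1 of 9 annexins, against 6.12% of all genes tested. The median log2 ratio was 0.47 for the S100 symbols and 0.47 for the annexins, beside 0.02 for all genes tested. *S100a8* and *S100a9* passed the filter only through IR12 and therefore had to differ, so the counts were repeated over the 12243 genes with an FPKM of at least 1 in both libraries. There 3 of 11 S100 symbols and 3 of 9 annexins were called higher, against 4.37% of genes, and 1 of 11 and 1 of 9 were called lower, against 4.19% of genes. The median log2 ratio over these members was 0.21 for the S100 symbols and 0.47 for the annexins, beside 0.03 for all 12243 genes.

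**Figure D1:**
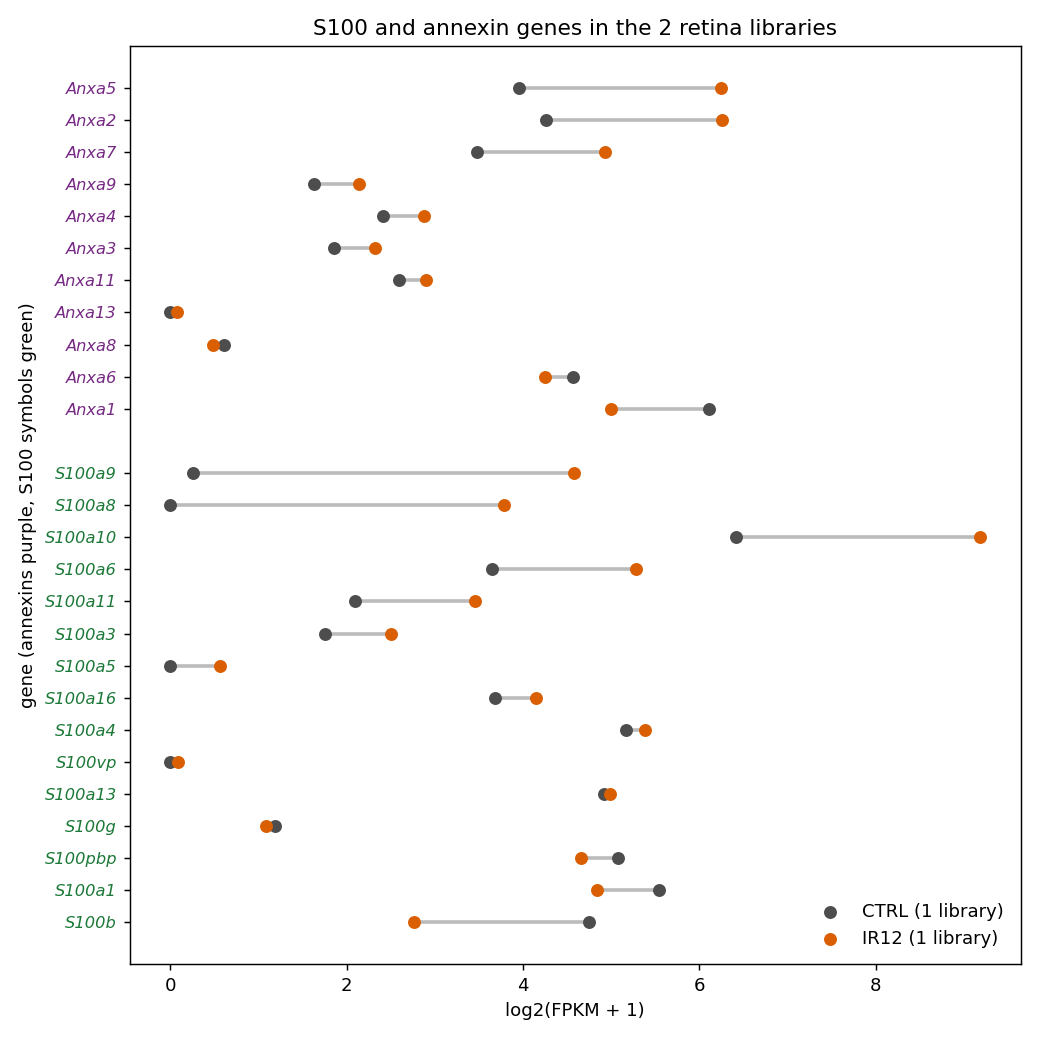
Levels of the 26 members listed above 0 in at least 1 library, as log2(FPKM + 1) on the x axis, with 1 gene per row, CTRL in grey and IR12 in orange. *S100a10* reached the highest level of the members in IR12, and *S100b* and *Anxa1* were the called members with the lower value in IR12.

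The 7 members below the filter were mostly at or near 0. *S100a7a*, *S100z* and *Anxa10* were listed at 0 in both libraries. *S100a5*, *S100vp* and *Anxa13* were listed at 0 in CTRL and had an FPKM of 0.477, 0.0665 and 0.0541 in IR12. *Anxa8* had 0.526 FPKM in CTRL and 0.396 FPKM in IR12.

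**Figure D2:**
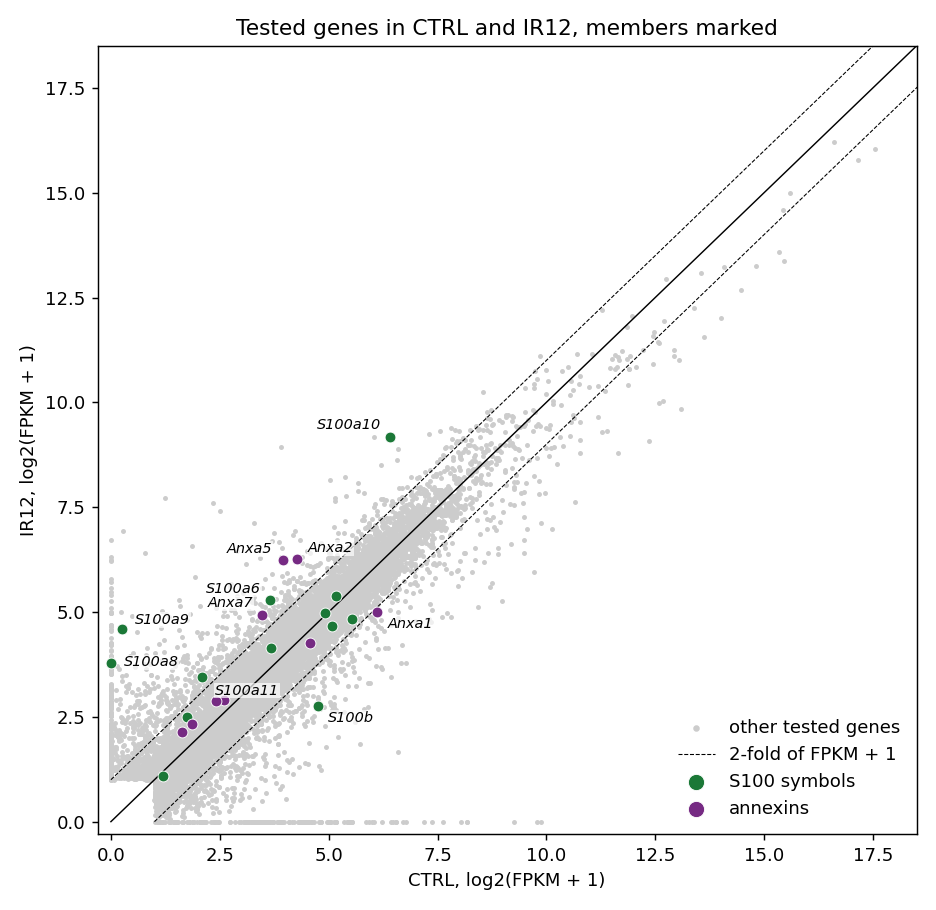
The 13599 tested genes by log2(FPKM + 1) in CTRL (x axis) and IR12 (y axis), with the 22 tested members marked, S100 symbols in green and annexins in purple. The solid line marks equal values and the dashed lines a ratio of 2-fold, and the 10 named members lie outside the dashed lines.

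*S100a8* and *S100a9* encode the subunits of calprotectin, a heterodimer that binds calcium and zinc, makes up a large part of the neutrophil cytosol and acts on Toll-like receptor 4 once released. *S100a8* (chr2:190073815-190074354, rn6) was listed at 0 in CTRL and had an FPKM of 12.8 in IR12. *S100a9* (chr2:190097554-190100276, rn6) went from 0.199 FPKM in CTRL to 23.0 FPKM in IR12 (log2 ratio 4.32). The genes of both subunits were thus at or near 0 in CTRL and at a moderate level in IR12. The depth behind the CTRL value was read from the steps between low values. In olfactory receptor genes with a locus of about 1 kb, FPKM multiplied by the locus length less an assumed fragment length of 200 bases came in whole multiples of 65.0 in CTRL and 38.1 in IR12, for 40 of 40 and 115 of 115 values of up to 20 multiples (within 0.02 of a multiple). On this scale 1 read weighed 1.71 times as much in CTRL as in IR12, a weight that includes any scaling between libraries and need not be the ratio of reads sequenced, and the *S100a9* values stood in a ratio of 197 reads in IR12 to 1 read in CTRL. If the CTRL value rested on 1 read, the ratio of the *S100a9* FPKM values, 115 times, has an exact Clopper-Pearson 95% interval from 20.5 to 4579 times, which covers counting error only and is a description of a gene that passed the filter only through IR12. This reading of the steps was inferred after the values were seen.

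Markers of the blood cells that carry calprotectin were given beside these genes. Of 10 neutrophil markers 0 had an FPKM of at least 1 in CTRL, and the 4 that were tested passed the filter only through IR12 and could only be higher there, so their calls carry no direction. The summed FPKM of the list was 0.915 in CTRL and 11.3 in IR12. Its most abundant gene was *Itgam*, a subunit of an integrin that other myeloid cells also carry, with 0.693 FPKM in CTRL and 5.71 FPKM in IR12. *Cxcr2*, a chemokine receptor of neutrophils, was listed at 0 in CTRL and had an FPKM of 1.59 in IR12, whereas the granule genes *Mpo* and *Elane*, which are transcribed in neutrophil precursors, were listed at 0 in both libraries. Of 8 monocyte and macrophage markers 5 were tested and 3 were called higher, of which only *Lyz2* had an FPKM of at least 1 in CTRL, with 26.2 summed FPKM in CTRL and 94.1 in IR12 and with *Lyz2*, the lysozyme of myeloid cells, most abundant in IR12, at 9.73 FPKM in CTRL and 76.9 FPKM in IR12. Most of the rise of that sum lay in *Lyz2*, whereas *Vcan*, the most abundant gene of the list in CTRL, had 15.0 FPKM in CTRL and 9.25 FPKM in IR12, and *Mrc1* and *Cd163* also had their lower value in IR12. Of 7 microglia markers 5 were tested and none was called, and their summed FPKM was 54.1 in CTRL and 46.0 in IR12. The epithelia of the eye surface also express these S100 genes, and of 7 markers of surface epithelium 2 were tested, both through IR12 alone, so that they could only be higher there. The most abundant was *Krt12*, a keratin of the corneal epithelium, with 0.874 FPKM in CTRL and 12.5 FPKM in IR12, beside *Krt5* and *Krt14* listed at 0 in CTRL and at 0.481 and 0.233 in IR12. The summed FPKM of the surface epithelium list was 2.75 in CTRL and 16.4 in IR12. The part of these cells in the values of *S100a8* and *S100a9* was not tested. In bulk tissue a change in the number of cells of a type and a change in RNA per cell cannot be told apart.

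The start regions of the 3 called members that carried the TATA box letters are shown. RefSeq start regions (GRCr8) were matched by symbol for 22 of the 29 members, and the 250 bases before each start were searched on both strands. The called members *S100a8* and *S100a10* had no matched start region and were not searched. The TATA box letters TATAAA were found in 5 of the 22, *Anxa1*, *Anxa2*, *Anxa10*, *S100a4* and *S100a9*, and in 12.9% of all 33469 start regions. The AP-1 letters TGANTCA were found in 2 of the 22, *Anxa2* and *Anxa10*, and in 6.34% of all start regions. The STAT letters TTCNNNGAA were found in 0 of the 22 and in 7.67% of all start regions. The 150 bases before the start are given 5′ to 3′ on the strand of the gene, with the matches in capitals, for *Anxa2* (chr8:78986102-78986251, plus strand), *S100a9* (chr2:178490623-178490772, minus strand) and *Anxa1* (chr1:227303733-227303882, minus strand).
Anxa2: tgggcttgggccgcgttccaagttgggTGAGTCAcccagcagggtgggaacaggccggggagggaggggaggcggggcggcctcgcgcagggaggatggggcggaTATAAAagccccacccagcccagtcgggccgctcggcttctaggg
S100a9: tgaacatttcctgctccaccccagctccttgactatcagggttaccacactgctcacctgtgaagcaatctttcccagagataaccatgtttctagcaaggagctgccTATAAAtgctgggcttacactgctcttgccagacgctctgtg
Anxa1: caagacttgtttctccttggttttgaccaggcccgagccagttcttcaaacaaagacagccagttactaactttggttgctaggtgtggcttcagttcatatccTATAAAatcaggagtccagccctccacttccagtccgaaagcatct
The TATA box match began 45 bases before the start in *Anxa2*, 42 in *S100a9* and 46 in *Anxa1*, and the AP-1 match of *Anxa2* began 123 bases before the start. Of the 5 members with the TATA box letters, *Anxa2* and *S100a9* were called higher in IR12, *Anxa1* was called lower, *S100a4* was not called and *Anxa10* was listed at 0 in both libraries. A match is a run of letters and no binding was measured.

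*S100a10* encodes the S100 protein that has lost calcium binding and stays in a permanently open form, in which it binds annexin A2 and forms a heterotetramer at the plasma membrane. *S100a10* (chr2:193892589-193901236, rn6) had 84.4 FPKM in CTRL and 580 FPKM in IR12 (log2 ratio 2.77). *Anxa2* (chr8:75687100-75723594, rn6), which encodes its partner, went from 18.2 FPKM in CTRL to 75.3 FPKM in IR12 (log2 ratio 1.99). Both genes of the complex were higher in IR12, and the FPKM of *S100a10* was 4.64 times that of *Anxa2* in CTRL and 7.70 times in IR12. There were 1198 genes with an FPKM above that of *S100a10* in CTRL and 123 in IR12. Among the 2225 genes with an FPKM of at least 50 in CTRL, *S100a10* had the log2 ratio of rank 2, after *Cd63*, a level chosen after the values were seen. It held 29.8% of the summed S100 FPKM in CTRL and 71.1% in IR12. This sum covers all 17 S100 symbols, *S100pbp* included. It was 284 in CTRL and 816 in IR12, and without *S100a10* it was 199 in CTRL and 236 in IR12, so most of the rise of the sum lay in this gene. RefSeq lists 8 pseudogenes of *Anxa2* and 1 of *S100a10*, and how reads of such copies were assigned is not given in the sources used here, so both levels are uncertain to that extent.

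The S100A10 and annexin A2 complex binds plasminogen and tissue plasminogen activator at the cell surface. *Plat*, which encodes the tissue activator, had 8.82 FPKM in CTRL and 39.9 FPKM in IR12 (log2 ratio 2.06). *Plau*, the urokinase gene, was listed at 0 in CTRL and had an FPKM of 8.54 in IR12. *Plaur*, the gene of the urokinase receptor, was listed at 0 in CTRL and had an FPKM of 1.80 in IR12. *Plau* and *Plaur* passed the filter only through IR12, so of these 3 genes only *Plat* could have gone either way. *Plg*, which encodes plasminogen and is made mainly in liver, was listed at 0 in CTRL and had an FPKM of 0.0880 in IR12. *Ahnak*, a large scaffold protein bound by the complex, had 18.5 FPKM in CTRL and 14.9 FPKM in IR12.

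*S100a11* and *Anxa1* encode a second pair of partners, in which S100A11 binds the amino-terminal end of annexin A1. *S100a11* had 3.29 FPKM in CTRL and 10.01 FPKM in IR12 (log2 ratio 1.36). *Anxa1* (chr1:237893966-237910012, rn6), a mediator by which glucocorticoids dampen inflammation, went from 68.1 FPKM in CTRL to 31.0 FPKM in IR12 (log2 ratio -1.11). This pair moved in opposite directions, and the FPKM of *Anxa1* was 20.7 times that of *S100a11* in CTRL and 3.10 times in IR12. *Anxa1* was the only annexin called lower, and it was not called when both libraries were rescaled to the same sum (log2 ratio -0.48, against a median of 0.59 over all genes tested on that scale). Of the formyl peptide receptors through which annexin A1 acts, *Fpr1* and *Fpr3* were listed at 0 in both libraries, which does not show absence, and *Fpr2* was at 0.0534 FPKM in CTRL and 0.188 FPKM in IR12. RefSeq lists 5 pseudogenes of *S100a11*, with the same limit on its level.

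*S100a6* encodes calcyclin, an S100 protein of dividing and glial cells that binds annexin A11 and the calcyclin-binding protein. It went from 11.6 FPKM in CTRL to 37.9 FPKM in IR12 (log2 ratio 1.63). *Anxa11*, a partner that links RNA granules to lysosomes, had 5.03 FPKM in CTRL and 6.48 FPKM in IR12 and was not called. *Cacybp*, which encodes the calcyclin-binding protein, went from 34.1 FPKM in CTRL to 6.81 FPKM in IR12 (log2 ratio -2.17). The 3 genes of these complexes therefore did not move together, since *S100a6* was higher, *Cacybp* lower and *Anxa11* under 2-fold.

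*S100b* (chr20:13130636-13142856, rn6) encodes the S100 protein of glial cells, which regulates the cytoskeleton inside the cell and binds the receptor RAGE outside it. It had 25.8 FPKM in CTRL and 5.81 FPKM in IR12 (log2 ratio -1.98). *S100b* was the only S100 symbol called lower, and its FPKM was 2.23 times that of *S100a6* in CTRL and 0.153 times in IR12. The markers of glia were given beside it. Of 7 Müller glia markers all 7 were tested and 6 were called lower, with -2.19 as their median log2 ratio, 1229 summed FPKM in CTRL and 448 in IR12. Among the 6, *Kcnj10* passed the filter only through CTRL and could only be lower in IR12. *Apoe* and *Slc1a3* were nearest to 2-fold, with log2 ratios of -1.29 and -1.27, and these markers were not read on other scales. The most abundant Müller glia marker was *Glul*, the glutamine synthetase gene, in CTRL, with 754 FPKM in CTRL and 126 FPKM in IR12, and *Vim*, an intermediate filament gene, in IR12, with 121 FPKM in CTRL and 221 FPKM in IR12. Of 4 astrocyte markers 2 were tested and 1 was called higher, *Gfap*, the filament gene of reactive glia, with 2.95 FPKM in CTRL and 21.9 FPKM in IR12. The most abundant astrocyte marker was *Aldoc*, with 689 FPKM in CTRL and 405 FPKM in IR12, and the summed FPKM of that list was 692 in CTRL and 427 in IR12. *Pax2*, which marks astrocytes of the optic nerve head, was listed at 0 in CTRL and had an FPKM of 0.0317 in IR12. The part of the glial markers' change in the value of *S100b* was not tested.

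Markers of the lens, a tissue in front of the retina, differed between the libraries as well. Of 7 lens markers all 7 were called lower in IR12, with -2.68 as their median log2 ratio, 3191 summed FPKM in CTRL and 373 in IR12. Among the 7, *Bfsp2* passed the filter only through CTRL and could only be lower in IR12. The most abundant was *Cryba1*, a crystallin gene, with 1614 FPKM in CTRL and 196 FPKM in IR12. The part of lens RNA in the lower values of *S100b* and *Anxa1* was not tested.

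The other 7 tested S100 symbols had log2 ratios between -0.71 and 0.75. *S100a1*, a regulator of calcium handling in muscle and neurons, had 45.6 FPKM in CTRL and 27.6 FPKM in IR12 (log2 ratio -0.71). *S100a4*, which binds non-muscle myosin and is known from motile cells, had 35.0 FPKM in CTRL and 40.7 FPKM in IR12. *S100a13*, which takes part in the release of growth factors that lack a signal peptide, had 29.3 FPKM in CTRL and 30.6 FPKM in IR12. These 3 were among the most abundant S100 genes of CTRL and none of them was called. *S100a16* had 11.9 FPKM in CTRL and 16.8 FPKM in IR12. *S100a3*, known from the hair cuticle, had 2.36 FPKM in CTRL and 4.66 FPKM in IR12. *S100pbp* had 32.9 FPKM in CTRL and 24.3 FPKM in IR12, and *S100g*, the vitamin D-dependent calbindin of intestine, 1.28 in CTRL and 1.13 in IR12. The locus of *S100g* overlaps *Ctps2*, so its low value may hold reads of that gene, and the loci of *S100a3*, *S100pbp*, *Anxa2*, *Anxa4* and *Anxa6* also overlap other listed genes.

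The annexins called higher were *Anxa5*, *Anxa2* and *Anxa7*. *Anxa5* (chr2:123162461-123193130, rn6) encodes the annexin that binds phosphatidylserine exposed on dying cells and forms lattices at membrane tears. It had 14.5 FPKM in CTRL and 74.6 FPKM in IR12 (log2 ratio 2.29). *Anxa7*, which encodes a membrane-fusing annexin of secretory cells, went from 10.1 FPKM in CTRL to 29.6 FPKM in IR12 (log2 ratio 1.46), with 4 RefSeq pseudogenes and the same limit on its level. The makeup of the family sum changed with these genes. *Anxa1* held 46.0% of the summed annexin FPKM in CTRL and 12.4% in IR12, whereas *Anxa2* and *Anxa5* together held 22.0% in CTRL and 60.1% in IR12. The summed annexin FPKM was 148 in CTRL and 249 in IR12.

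The other 5 tested annexins had log2 ratios between -0.32 and 0.51. *Anxa6*, a large annexin with a duplicated core that binds the cortical cytoskeleton, had 22.7 FPKM in CTRL and 18.0 FPKM in IR12. *Anxa4*, an annexin of secretory epithelia, had 4.33 FPKM in CTRL and 6.37 FPKM in IR12. *Anxa3* had 2.61 FPKM in CTRL and 3.99 FPKM in IR12, and *Anxa9* had 2.10 in CTRL and 3.42 in IR12. *Anxa11*, given above, completes the 5, and none of them was called.

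**Figure D3:**
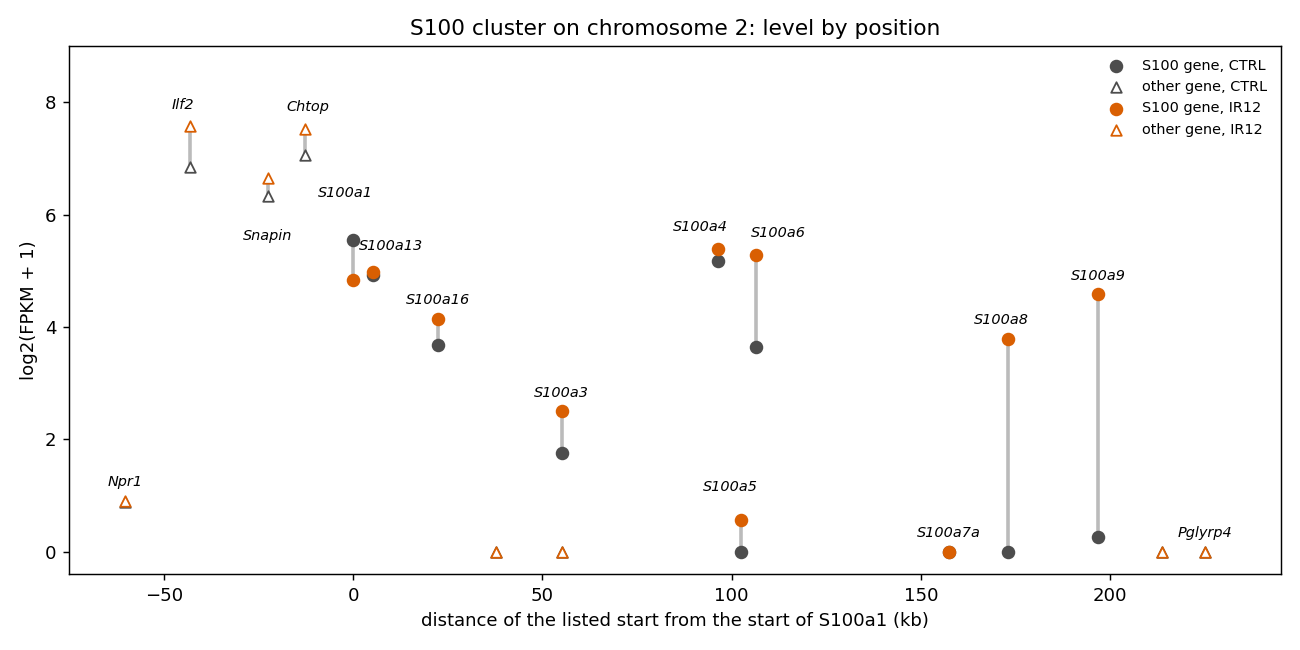
Levels of S100 genes (circles) and other genes (triangles) as log2(FPKM + 1) on the y axis against the distance of their listed start from the start of *S100a1* in kb on the x axis, CTRL in grey and IR12 in orange. The change differed from gene to gene along the cluster. *S100a1* had its lower value in IR12 but was under 2-fold, whereas *S100a6*, *S100a8* and *S100a9* were called higher. *S100vp*, 728 kb from *S100a1*, lies outside the plotted range.

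Most S100 genes share a chromosome. Of the 17 S100 symbols 14 lay on chromosome 2, and 11 of them formed a cluster in which neighbours were under 1 Mb apart (chr2:189900667-190631821, rn6). Change was not uniform along it. *S100a1* at 1 end was under 2-fold with the lower value in IR12, *S100a13*, *S100a16*, *S100a3* and *S100a4* were under 2-fold as deposited with the higher value in IR12 (with the exceptions on other scales given below), and *S100a6*, *S100a8* and *S100a9* were called higher. *S100a4* and *S100a6* begin 96.5 kb and 107 kb from the start of *S100a1* and had log2 ratios of 0.21 and 1.63, so genes about 10 kb apart differed in their change. The 6 other genes listed within the cluster, among them *Pglyrp4*, were all listed at 0 in both libraries. Among them a *U1* gene has the same listed locus as *S100a3*, and the others lie between S100 genes. The tested genes just before the cluster, *Ilf2*, *Snapin* and *Chtop*, had log2 ratios of 0.73, 0.32 and 0.46. *S100a11* and *S100a10* lie side by side 3.24 Mb after this cluster of S100 symbols and were both called higher, and *S100z* lies elsewhere on the chromosome.

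Receptors, binding partners and effectors of both families were followed in a list of 41 genes, of which 39 were in the table and 30 were tested. Of these 8 were called higher, against 6.56% of all genes tested, and 2 lower, against 6.12%, and their median log2 ratio was 0.28, beside 0.02 for all genes tested. Among the 30 tested, 5 passed the filter only through IR12, *Plau* and *Plaur* among them. *Plat*, *Plau*, *Plaur* and *Cacybp* were given above. Among partners of the annexins in membrane repair, *Myof*, the myoferlin gene, had 1.14 FPKM in CTRL and 5.93 FPKM in IR12, and *Capn2*, the gene of a calcium-dependent protease, had 20.5 in CTRL and 51.6 in IR12, with log2 ratios of 1.70 and 1.30. *Dysf*, which encodes dysferlin, had 1.29 FPKM in CTRL and 1.14 FPKM in IR12. *Actb*, the actin gene, went from 260 FPKM in CTRL to 537 FPKM in IR12 (log2 ratio 1.04), and it was not called when the columns were rescaled to the same sum without small non-coding RNAs (log2 ratio 0.94). The remaining lower call was *Gca*, which encodes grancalcin, an EF-hand protein outside the S100 family, with 9.89 FPKM in CTRL and 4.25 FPKM in IR12 (log2 ratio -1.05), and it was not called when the columns were rescaled to the same sum (log2 ratio -0.49). Of the cell surface receptors of released S100 proteins, 3 tested genes were under 2-fold. *Ager*, the gene of RAGE, had 8.27 FPKM in CTRL and 9.27 FPKM in IR12, *Tlr4*, which passed only through CTRL, had 1.47 in CTRL and 0.932 in IR12, and *Bsg*, the basigin gene, had 259 in CTRL and 222 in IR12. The scavenger receptor genes *Cd36*, with 0.142 FPKM in CTRL and 0.654 FPKM in IR12, and *Scarf1*, with 0.112 in CTRL and 0.296 in IR12, did not pass the filter.

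**Figure D4:**
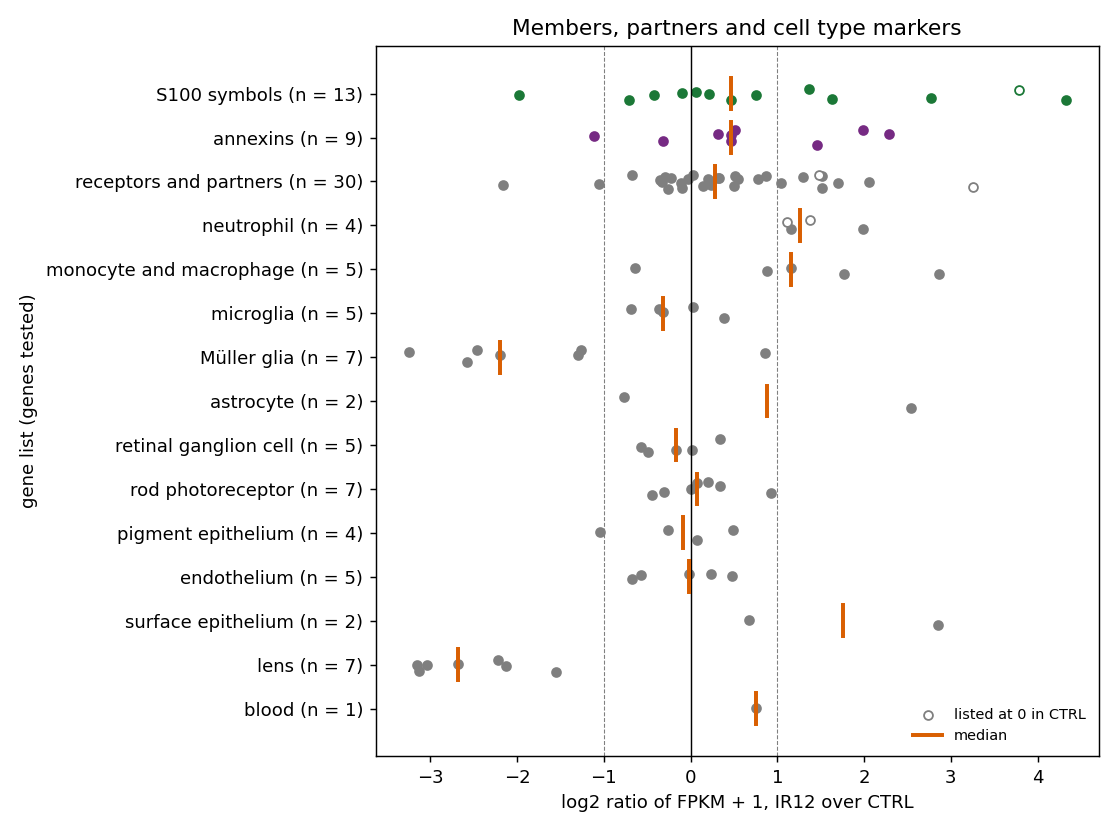
Log2 ratio of FPKM + 1, IR12 over CTRL, of each tested gene of the S100 symbols, the annexins, the receptors and partners and the cell type marker lists, with the median of each list in orange and open circles for genes listed at 0 in CTRL. The lens markers lie below -1, the plotted neutrophil and surface epithelium markers passed the filter only through IR12 and could only lie above 0, and the S100 symbols spread from -1.98 to 4.32.

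The remaining cell type markers and reference genes set the members' values in context. Of 6 retinal ganglion cell markers 5 were tested and none was called, with a median log2 ratio of -0.16. Of 6 endothelium markers 5 were tested and none was called, with a median log2 ratio of -0.02. Of 5 pigment epithelium markers 4 were tested and 1, *Rpe65*, was called lower (log2 ratio -1.04), with 11.1 FPKM in CTRL and 4.88 FPKM in IR12. The calls of all marker lists were read on the deposited scale only, so calls near 2-fold may not hold on other scales. The blood list had 1 tested gene of 4, *Hbb*, a globin gene, with 20.4 FPKM in CTRL and 35.1 FPKM in IR12. Its alpha globin symbols were not in the table, which lists *Hba-a2*, with 6.77 FPKM in CTRL and 17.1 FPKM in IR12, and *Hba-a3*, with 11.4 in CTRL and 30.0 in IR12, both at least 2-fold higher. The fibroblast list had 0 tested genes of 5. Of the reference genes *Gapdh* had 716 FPKM in CTRL and 690 FPKM in IR12, *Ppia* had 832 in CTRL and 903 in IR12, and *Tbp* had 24.8 in CTRL and 28.9 in IR12. These 3 were under 2-fold, whereas *Actb* was called higher on the deposited scale, with the exception given above.

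**Figure D5:**
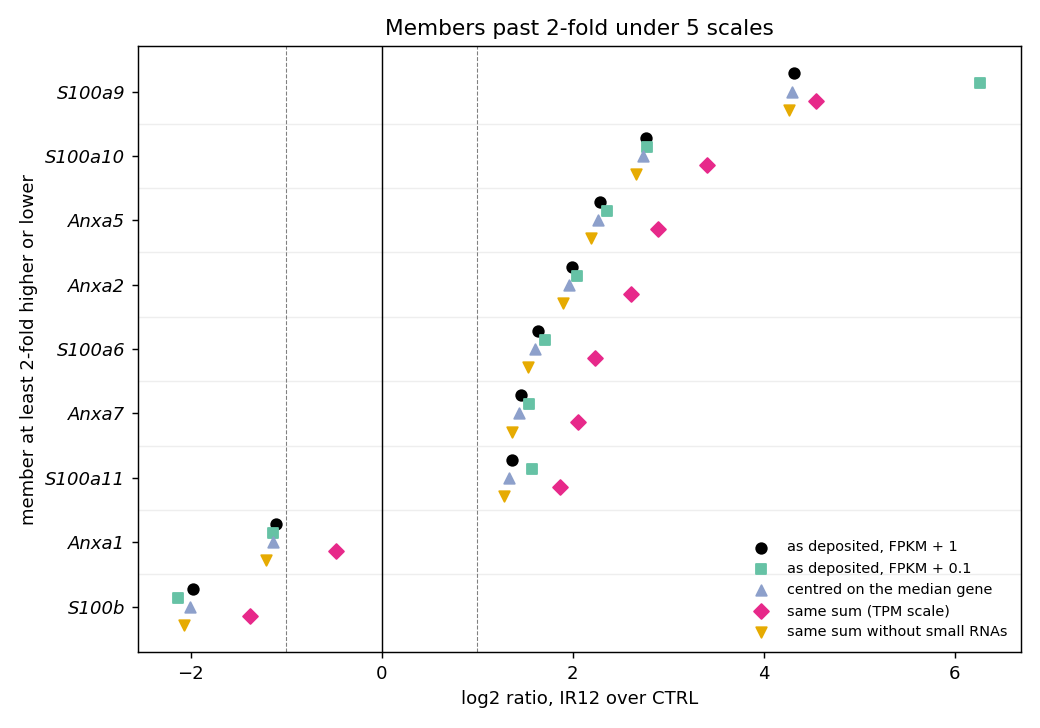
Log2 ratio, IR12 over CTRL, of the 9 called members with a value above 0 in CTRL (rows) under 5 scales (symbols), with dashed lines at 2-fold. Rescaling to the same sum moved the 9 members to higher ratios and brought *Anxa1* inside the dashed lines at -0.48.

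The scale of the 2 columns bears on the direction of small changes. The FPKM of small non-coding RNAs, recognised by symbol, made up 68.1% of the column sum in CTRL and 46.3% in IR12. Rescaling both columns to the same sum therefore moved the median log2 ratio of all genes tested from 0.02 to 0.59, with 2817 genes called higher and 436 lower, so that 86.6% of calls were higher, against 51.7% as deposited. Relative to that median *S100a10* stood at 2.82, *S100b* at -1.97 and *Anxa1* at -1.07. The log2 ratios of *S100pbp*, *S100g* and *Anxa6* changed sign on that scale, and that of *S100a13* changed from 0.06 to -0.03 when small non-coding RNAs were left out of the sum. None of these 4 was called as deposited. With the same sum 7 S100 symbols were called higher instead of 5, since *S100a3* (log2 ratio 1.21) and *S100a16* (1.06) passed 2-fold. On the other 3 scales tried, all 10 called members were past 2-fold in the direction given above.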

How the data were processed

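RNA-seq was deposited for 2 rat retina samples, CTRL and IR12, with 1 library each. The authors deposited gene FPKM, and per the submitters' processing notes STAR 2.5.2b, Cuffdiff 2.2.0 and rn6 were used, with no stated role for each. How FPKM were scaled between libraries is not given in the sources used here. The labels and the study's methods name a stranded total RNA kit with removal of ribosomal RNA, and the series text names a stranded mRNA kit. Groups came from the labels. No significance test was made. Log2 ratios of FPKM + 1 were computed with Python 3.11.15, pandas 2.3.3 and numpy 2.4.6, and the counting interval with scipy 1.17.1; the arithmetic of the calls was tested on simulated data, with ratios set without noise in the changed genes, so how often noise gives a call was not tested. Members and lists were chosen with earlier results of these data known. Called members were named with both values, other members by level or as known partners, and of the partner list the genes called plus some receptors and partners chosen after their values were seen. Some listed genes are not reported here. Alternatives were another pseudocount, other scales and filters, and a fold of 1.5. Figures were drawn with matplotlib 3.10.9.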

Additional observations from a re-analysis of the deposited data

How the results depend on the processing

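Of 56 values of the S100 and annexin counts and medians and of the median of receptors and partners under alternatives, 52 stayed within 1.5 times (counts) or within 0.58 on the log2 scale (medians), and none changed direction. With an FPKM of at least 1 in both libraries, 3 S100 symbols were called higher instead of 5, since *S100a8* and *S100a9* did not pass. At a fold of 1.5, 2 S100 symbols were called lower instead of 1. The share of all genes tested that was lower at that fold is not given here, so this count is not read as a result about the family. With both columns rescaled to the same sum, 7 S100 symbols were called higher instead of 5, with *S100a3* and *S100a16* past 2-fold. On that scale 2817 of all genes tested were called higher instead of 892, so this count is not read as a result about the family. There 0 annexins were called lower instead of 1, beside 436 of all genes tested instead of 832. The median log2 ratio of the S100 symbols was 1.06 instead of 0.47, on a scale whose construction raised the ratios of all genes. Without *S100pbp*, an alternative chosen after seeing the data, the S100 median was 0.61. Among 128 values of single genes, 23 moved by more than 0.58 and 0 of the called genes changed sign. With 1 library per group the spread between animals is unknown, and values near 0 rest on few reads. No paired analysis was possible because each group had 1 library, and no test was made.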

Other observations

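A relative of the S100 genes lies outside the symbol rule. *RGD1562234*, which RefSeq names *S100a7l2*, went from 47.1 FPKM in CTRL to 13.5 FPKM in IR12 (log2 ratio -1.73). It lies between the cluster of S100 symbols and *S100a11* on chromosome 2 (chr2:191291478-191294374, rn6), where 45 of 52 listed genes were at 0 in both libraries and 2 passed the filter. The other was *LOC102550416*, listed at 0 in CTRL and at an FPKM of 1.16 in IR12. Both were singled out after their values were seen. The cluster was drawn from S100 symbols alone. *RGD1562234* starts under 1 Mb after the end of the cluster, so the same distance rule would have placed it there. The cluster would then hold a gene at least 2-fold lower in IR12 and end nearer to *S100a11*.

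The EF-hand is shared by many calcium-binding proteins outside the S100 family. In a list of 39 such genes written after the data had been seen, 36 were tested. Of these 2 were called higher, against 6.56% of all genes tested, and 2 lower, against 6.12%, shares near those of all genes, and the median log2 ratio was -0.35, beside 0.02 for all genes tested. *Lcp1*, an actin-bundling protein of leukocytes, had 3.81 FPKM in CTRL and 11.1 FPKM in IR12, and *Efhd2*, an actin-binding protein, had 9.58 in CTRL and 20.6 in IR12. The lower calls were *Efhd1*, a mitochondrial protein gene, with 8.59 FPKM in CTRL and 1.95 FPKM in IR12, and *Necab1*, a neuronal calcium-binding protein gene, with 11.1 in CTRL and 3.54 in IR12. Under 2-fold were 32 of the 36. Among these *Rcvrn*, the recoverin gene of photoreceptors, had 1558 FPKM in CTRL and 825 FPKM in IR12, and *Calb2*, the calretinin gene of amacrine and ganglion cells, had 275 in CTRL and 148 in IR12, whereas *Guca1b*, a guanylate cyclase activator gene of photoreceptors, had 437 in CTRL and 718 in IR12.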
